A study of Mus musculus with 8 samples.

Results

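The CpG island sites at 40 to 80% were 2368 promoter cytosines of mouse germline stem (GS) cells that lay in annotated CpG islands and had an intermediate methylation level. They were selected on that level, the methylated share of the reads averaged without weights over 8 GS cell lines, so the level itself is a description and was not tested. They made up 1.52% of the 156142 island cytosines and 1.163% of the 203645 promoter cytosines measured. Together they lay within 1 kb of the annotated starts of 1800 genes, in 1784 islands, and 2362 of them were upstream of the start and 6 downstream. Of these genes, 1383 (76.8%) held 1 such site, 317 held 2, 79 held 3, 18 held 4 and 3 held more.

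GS cells are a culture system for the stem cells of the male germline, which multiply in medium with FGF2 and GDNF and can form sperm again when returned to a testis. Here the cultures were started from adult testis cells sorted for the surface protein CD9. All lines are labelled B6, the usual short name of the C57BL/6 strain, and wild-type. The 4 control-F1 lines (29, 37, 44 and 45) came from F1 mice born after natural mating, and the 4 ICSI-F1 lines (11, 17, 20 and 21) from F1 mice born after ICSI, the injection of a sperm into an oocyte. For ICSI-F1 mice the study used fresh sperm of mice that express *Egfp*, and it also calls this sperm wild-type. The comparison asks whether ICSI leaves a mark on the DNA methylation of the germline of the offspring. Each line was 1 library, and p-values rest on the spread between the lines, which the moderated logistic model pools in part over all sites. The labels tie no line to an animal, but the numbers of the lines are among those that the supplement of the study gives to individual F1 mice. The wording of the labels divides the lines into set 1 (lines 29, 37, 11 and 17) and set 2 (lines 44, 45, 20 and 21), with 2 lines of each group in both. Line 37 stood apart from the others over these sites, and results that rest on it are given with and without it. DNA methylation of promoters holds no expression values, so the cell type was not checked against marker genes.

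CpG islands are stretches rich in CpG dinucleotides that cover many promoters and are usually free of methylation in both somatic and germ cells. The main exceptions are imprinted regions, genes of the inactive X chromosome and certain germline genes, where methylation of the island goes with silencing. Maintenance methylation copies the mark from one strand of a CpG to the other, so that both cytosines of a CpG usually carry alike levels. Reduced representation bisulfite sequencing cuts DNA with MspI at the sequence CCGG, between its cytosines, and reads the fragments from their ends. The inner cytosine of CCGG therefore begins the fragment on its 3′ side, and at the end of the fragment on its 5′ side it has to be rebuilt when the protruding ends are filled in. The sources used here do not say which form of cytosine filled the ends.

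Almost all of the sites were such inner cytosines of CCGG, and 4 of them are shown with the complete fragments on both sides, read along the strand of the measured cytosine (mm10, GRCm38). In these sequences the capitals mark CCGG, and the middle one of each sequence holds the site. *Pcbp3* had the largest SD between lines among well covered sites, *Cnr1* and *Marcksl1* lay past the 20% rule with no overlap of the groups, and *Creb1* had both strands at 40% or more.
Pcbp3 site 76962028, chr10:76961797-76962091, minus strand: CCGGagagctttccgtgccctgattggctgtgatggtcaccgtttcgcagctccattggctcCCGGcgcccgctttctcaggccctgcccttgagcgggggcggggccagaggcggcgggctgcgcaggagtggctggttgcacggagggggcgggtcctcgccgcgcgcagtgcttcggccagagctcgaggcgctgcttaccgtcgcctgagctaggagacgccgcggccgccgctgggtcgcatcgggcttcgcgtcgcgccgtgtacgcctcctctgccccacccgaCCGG
Cnr1 site 33924020, chr4:33923918-33924074, minus strand: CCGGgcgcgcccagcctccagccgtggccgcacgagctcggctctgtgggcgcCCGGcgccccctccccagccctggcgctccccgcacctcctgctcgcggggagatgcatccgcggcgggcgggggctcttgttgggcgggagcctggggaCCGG
Marcksl1 site 129513527, chr4:129513423-129513552, plus strand: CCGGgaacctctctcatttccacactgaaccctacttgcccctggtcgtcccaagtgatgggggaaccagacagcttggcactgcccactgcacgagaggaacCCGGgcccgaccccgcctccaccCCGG
Creb1 site 64532525, chr1:64532460-64532676, plus strand: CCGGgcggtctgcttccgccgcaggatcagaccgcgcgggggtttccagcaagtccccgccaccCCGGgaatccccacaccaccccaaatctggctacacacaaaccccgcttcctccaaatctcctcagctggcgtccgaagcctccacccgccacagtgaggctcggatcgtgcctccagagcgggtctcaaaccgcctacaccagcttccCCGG
The remaining sequences, all of the plus strand, come from the promoters of *Gm15407*, *Vars* and *Gm48544*, where cytosines outside CCGG also reached 40%. Here the capitals mark the CpGs of which at least 1 cytosine was an island site at 40 to 80%.
Gm15407 partly methylated CpGs, chr5:148820500-148820727, plus strand: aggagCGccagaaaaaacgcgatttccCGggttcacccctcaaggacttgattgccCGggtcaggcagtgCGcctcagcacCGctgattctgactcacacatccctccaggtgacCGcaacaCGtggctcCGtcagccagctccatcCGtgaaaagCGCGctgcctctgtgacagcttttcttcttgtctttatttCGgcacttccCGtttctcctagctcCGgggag
Vars partly methylated CpGs, chr17:35000319-35000429, plus strand: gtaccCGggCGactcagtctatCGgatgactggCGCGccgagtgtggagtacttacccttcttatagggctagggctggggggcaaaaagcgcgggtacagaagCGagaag
Gm48544 partly methylated CpGs, chr13:13034789-13034828, plus strand: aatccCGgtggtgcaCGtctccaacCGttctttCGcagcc
The letters CCGG, which read the same on both strands, occur in 52.8% of 32851 RefSeq promoter windows of 300 bases (GRCm38.p6), so their presence alone sets no promoter apart.

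Of the 2368 sites, 2331 (98.4%) were the inner cytosine of CCGG, against 14.03% of all island cytosines. Seen from the other side, 10.6% of the 21899 island cytosines of CCGG and 0.0276% of the other 134243 island cytosines had an intermediate level. A level of 20% or more was found at 49.1% of the island cytosines of CCGG and at 78 (0.0581%) of the others. The other strand of the same CpG was measured for 2083 of the CCGG sites, and its median level was 5.47% (quartiles, 3.98% to 9.70%). It lay under 10% at 1566 sites, between 10% and 20% at 185, between 20% and 40% at 306, between 40% and 80% at 24 and above that at 2. Cytosines outside CCGG within 100 bp were measured around 2290 of the CCGG sites, a median of 16 of them per site, and averaged under 10% at 2279 (99.5%), with a median of 2.08%. At most of the sites with these measurements the surrounding island was thus itself at a low level, and so was the other strand of the same CpG. For that reason the sites are named here by their rule and not as partly methylated islands.

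**Figure D1:**
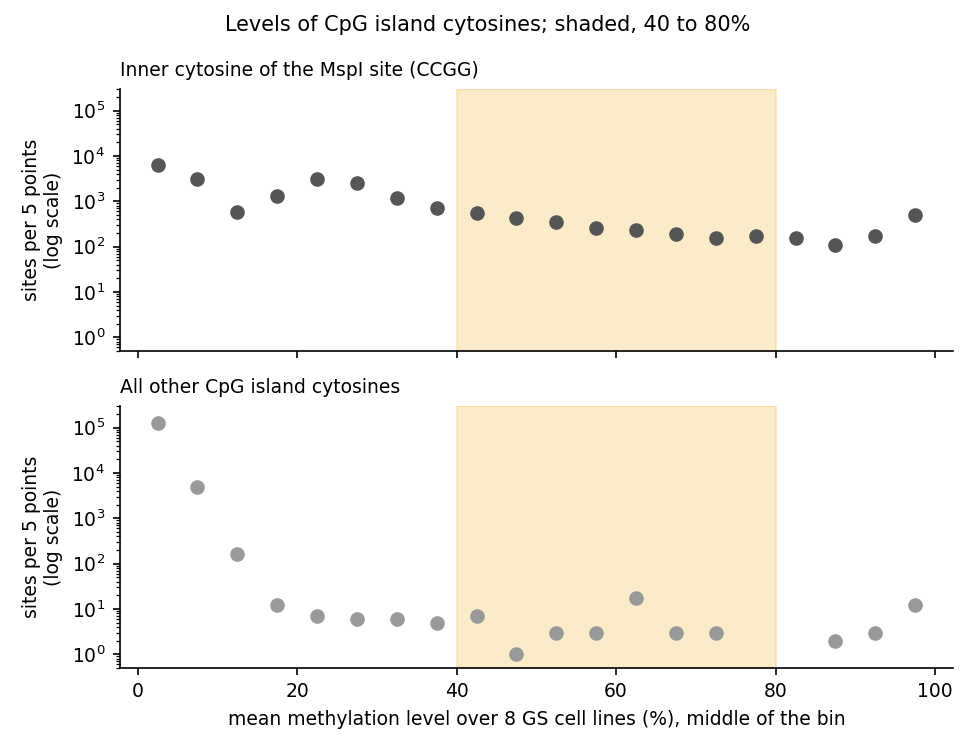
Number of CpG island cytosines (vertical axis, log scale) by mean methylation level over the 8 GS cell lines (horizontal axis, bins of 5 percentage points), above for the inner cytosine of CCGG and below for all other island cytosines; empty bins have no point. In the shaded range of 40 to 80% the CCGG panel holds 2331 sites and the lower panel 37.

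From 40 bp upwards, the level of island cytosines of CCGG moved with the length of the MspI fragments next to them. Among CCGG cytosines with neighbours under 10% and a 5′ fragment of 40 to 120 bp, the median level was 24.1% (quartiles, 19.7% to 27.8%; 2614 sites) where the fragment on the 3′ side had 40 to 80 bp. It was 43.9% (534 sites) at 160 to 200 bp, 55.1% (375 sites) at 200 to 250 bp, 66.0% (244 sites) at 250 to 300 bp and 87.2% (398 sites) from 300 bp upwards. An intermediate level was thus found at 3.79% of the sites with a 3′ fragment of 40 to 80 bp, and at 89.8% of those at 250 to 300 bp. The 5′ side ran the other way, from a median of 24.2% (2549 sites) at 40 to 80 bp to 3.96% (1257 sites) from 300 bp upwards, where none had an intermediate level. Neither side followed this course among the shortest fragments, since the median was 5.95% (3955 sites) at 5′ fragments under 40 bp and 27.3% (1987 sites) at 3′ fragments under 40 bp. Reads were 150 bases long, and the median was 21.4% at 228 sites with a 5′ fragment of 140 to 149 bp and 4.84% at 149 sites with one of 150 to 159 bp. This drop at the read length was present in each of the 8 lines, whose medians were 14.6% to 30.4% below it and 2.83% to 5.48% above it.

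**Figure D2:**
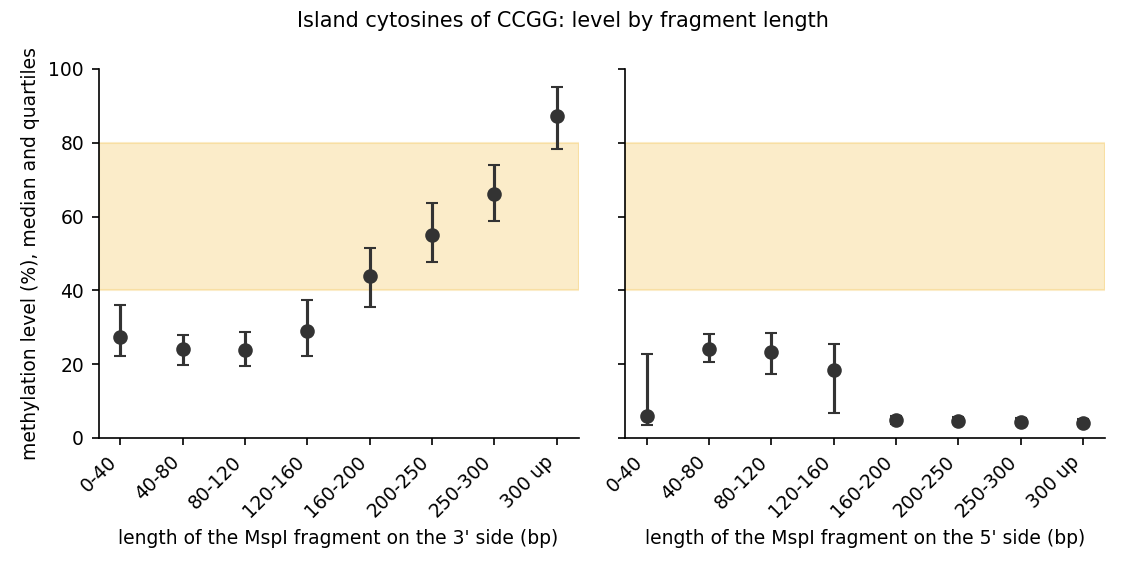
Methylation level (%, median and quartiles over sites) of island cytosines of CCGG with neighbours under 10%, by the length in bp of the MspI fragment on the 3′ side (left) and on the 5′ side (right), where the other fragment had 40 to 120 bp. The median is 24.1% at 3′ fragments of 40 to 80 bp and 87.2% from 300 bp upwards, and it is 5.95% at 5′ fragments under 40 bp and under 5% from 160 bp upwards; the shaded range is 40 to 80%.

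The CCGG sites at 40 to 80% had a longer fragment on the 3′ side than on the 5′ side at 1935 places (83.0%). The medians were 188 bp and 62 bp over these 2331 CCGG sites. A 3′ fragment of 120 bp or more was present at 74.9% of them and at 14.4% of the island CCGG cytosines at 20 to 40%. The share of the coverage that came from the 5′ side could be estimated for 917 of them, from the nearest cytosine outside CCGG on either side. Across these sites, which were selected on their level, the share and the level had a Pearson correlation of 0.630 to 0.776 within the lines. Over all 9249 sites with such an estimate, and not only the selected ones, it was 0.508 (line 37) to 0.878 (line 21). Line 37 had 0.749 over the 917 selected sites. These correlations are a description over sites that share libraries. The fragments, coverage and levels moved together, and the part of the end filling in these levels was not tested.

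Other features of the sites are given beside those of all island sites, except for overlap with transcripts. They were on the plus strand at 49.6% (49.7% for all island sites) and lay at a median of 163 bp from the gene start (127 bp for all island sites). On the X chromosome were 17 and on the Y chromosome 2, against 1469 and 8 of all 156142 island sites. In the GENCODE annotation 2114 (89.3%) overlapped no transcript, 138 a noncoding part of an exon, 108 an intron, 4 an untranslated and 4 a coding part of an exon. No transcript was overlapped by 89.9% of island sites at 20 to 40% and 88.7% of those at 80% or more. The median GC content in 201 bp was 65.7%, against 69.7% over all island sites, with 18 CpGs against 21. Coverage was thinner, with a median of 41 reads after the scaling of the table was undone, against 64 over all island sites and 25 over island sites at 80% or more.

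Summed coverage over all promoter sites was 9121937 (line 37) to 16781748 reads per line (line 45). Over the 2368 sites the median coverage was 36 to 47 reads per line, so that the counting error of a single level was large. Reads carried no molecular identifiers, and this error covers counting alone. The median SD of a site between lines of the same group was 17.1 percentage points, where counting alone would give 7.76. After the mean of each line over the sites was taken out it was 12.4. All 8 lines lay between 40% and 80% at 76 of the 2368 sites, and at 238 sites at least 1 line was under 20% and at least 1 at 80% or more.

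The mean level over the sites was 52.1% in control-F1 line 29, 34.3% in line 37, 62.8% in line 44 and 62.5% in line 45. In the ICSI-F1 lines it was 50.3% in line 11, 51.2% in line 17, 61.6% in line 20 and 67.0% in line 21. Lines of set 2 (mean 63.5%) were above all lines of set 1 (mean 47.0%) in both groups, and line 37 was the lowest of the 8 lines at 1531 sites (64.7%). Coverage of long fragments ran the other way between the sets, and the median coverage of other island cytosines in fragments of 150 to 250 bp, divided by that in fragments of 40 to 100 bp, was 1.88 in line 37, 0.676 to 1 in the rest of set 1 and 0.284 to 0.462 in set 2. Island cytosines of CCGG with neighbours under 10% were then taken without regard to their own level. Where the 3′ fragment had 200 to 300 bp and the other fragment 40 to 120 bp (619 sites), the median was 23.4% in line 37. It was 50% to 53.1% in the rest of set 1 and 72.7% to 80.5% in set 2. Where both fragments had 40 to 120 bp (4025 sites), the medians of all 8 lines lay between 21.5% and 24.4%.

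Among the CCGG sites at 40 to 80% the line means were likewise closer together where the 3′ fragment was short. The 586 CCGG sites at 40 to 80% with a 3′ fragment under 120 bp had means of 47.4% to 51.5% in all 8 lines, and the groups had 48.5% ± 1.35 (control-F1) and 49.2% ± 1.69 (ICSI-F1; SD, n = 4). The 859 with 200 to 300 bp ranged from 25.8% in line 37 to 77.6% in line 21, with group values of 55.5% ± 21.5 and 63.3% ± 13.1 (SD, n = 4), and the difference of 7.73 points was −2.17 without line 37. From 300 bp upwards (172 sites) the difference of 12.2 points was 0.628 without line 37.

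**Figure D3:**
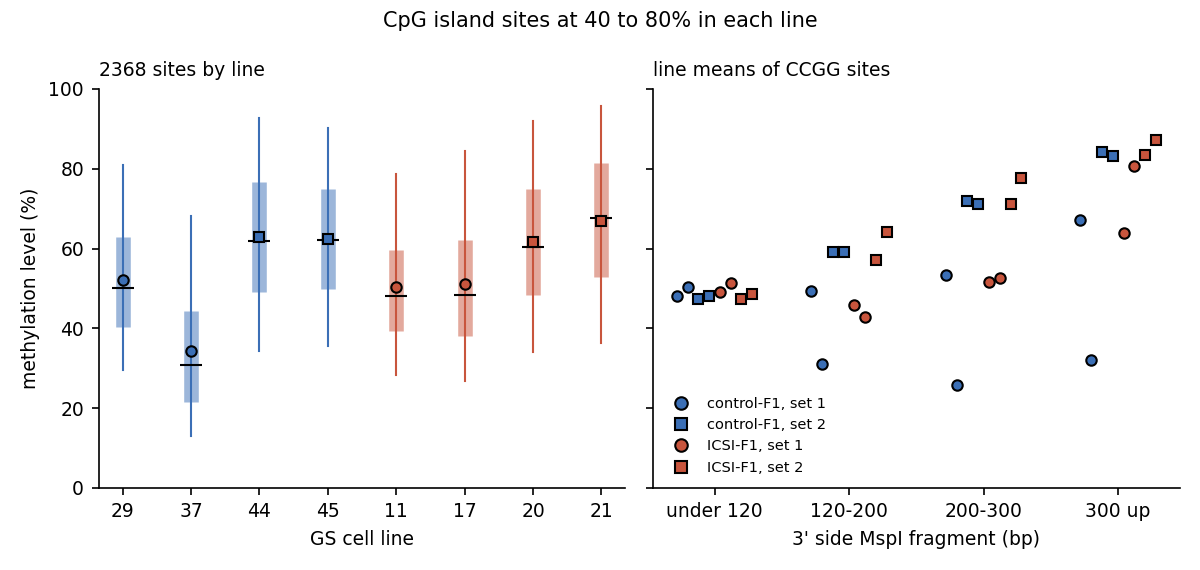
Left, methylation level (%) of the 2368 sites in each GS cell line, with the 5th to 95th percentile as a thin bar, the quartiles as a thick bar, the median as a dash and the mean as a point. Right, the mean of each line over the CCGG sites by length of the 3′ fragment; the lines lie within 47.4% to 51.5% under 120 bp and line 37 is lowest from 120 bp upwards.

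Control-F1 lines averaged 52.9% ± 13.4 and ICSI-F1 lines 57.5% ± 8.11 over the sites (SD, n = 4). Both SDs exceeded the difference of 4.58 percentage points, and the groups overlapped. It was 7.55 within set 1 and 1.61 within set 2, and −1.62 when line 37 was left out. ICSI-F1 GS cells had the higher mean at 71.2% of the sites, with a median difference of 4.80 points, where over all promoter sites they were higher at 43.4% with a median of −0.205. Without line 37 the share was 43.5% and the median −1.44. On the other strand of the CCGG sites, control-F1 lines averaged 9.97% ± 1.03 and ICSI-F1 lines 9.17% ± 0.936 (SD, n = 4). The 37 sites outside CCGG had 63.1% ± 8.79 and 54.1% ± 15.1 (SD, n = 4), a difference of −8.91 that was −3.00 without line 17 and −14.6 without line 21, and 21 of these sites lay in 1 promoter.

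Single sites were compared first by the 20% rule, which asks for group means over 20 percentage points apart and for all ICSI-F1 lines on one side of the control-F1 mean. By this rule 55 sites (2.32%) were hypermethylated and 6 (0.253%) hypomethylated in ICSI-F1 GS cells, against 0.274% and 0.0506% of all promoter sites. The share over all sites holds many sites near 0, which have no room to fall by 20 points. Outside islands, shores and shelves, the 1276 sites of the same level had 15.8% and 3.21%, and island sites at 20 to 40% had 0.0666% and 0.106%. All 55 hypermethylated sites were inner cytosines of CCGG of 55 genes, and 41 of them had a 3′ fragment of 200 bp or more, as did 1031 of the 2331 CCGG sites. Line 37 was the lowest line at 50 of the 55. For 47 of them the other strand was measured, and it was hypermethylated at none, with a median absolute difference of 2.18 points. The 6 hypomethylated sites, all named here after their values were seen, were 3 cytosines outside CCGG upstream of *Vars* and 1 CCGG cytosine each of *Marcksl1*, *Stag2* and *Ap2a2*. Without line 37 there were 10 hypermethylated and 25 hypomethylated sites. For this and the other counts with a line left out, the share over all promoter sites was not computed. The count of hypermethylated sites was 220 without line 44, 202 without line 45, 188 without line 11 and 130 without line 17, and that of hypomethylated sites was 12 without line 29, 10 without line 44, 14 without line 11, 10 without line 17, 12 without line 20 and 25 without line 21.

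The groups did not overlap at 17 sites. At 13 of these the ICSI-F1 lines were higher (0.549%, against 0.427% of all promoter sites) and at 4 they were lower (0.169%, against 0.679%). A logistic model of methylated and unmethylated reads with dispersion moderated across all sites by limma called 0 of the 2368 sites, and none of the whole table (0.0%), when Benjamini-Hochberg adjusted p had to be under 0.05, and the lowest adjusted p among the sites was 0.533. Its unadjusted p was under 0.05 at 162 of the sites (6.84%). ICSI-F1 was higher at 152 of these and lower at 10, where the whole table had 2.6% higher and 4.47% lower. The count of 162 was 61 without line 37, 394 without line 44, 369 without line 45, 283 without line 11, 261 without line 17 and 101 without line 20. With all lines the share of 6.84% stood against 7.06% of the whole table. It was below that of the whole table without line 37 (2.58% against 7.45%) or line 20 (4.27% against 7.86%), and also without line 29 or 21. It was above it without line 44 (16.6% against 7.3%) or line 45 (15.6% against 7.2%), and also without line 11 or 17. limma on log2 ratios called 0 as well, with 16 at an unadjusted p under 0.05 (0.676%, against 3.49% of the whole table). A logistic model without moderation called 0, with 32 at an unadjusted p under 0.05 (1.35%, against 7.75%).

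The largest increases past the 20% rule were at inner cytosines of CCGG outside any transcript. The largest was 190 bp upstream of *Cpne8*, a copine that binds membranes with calcium (chr15:90679622, plus strand). Its level was 50%, 14.7%, 54.2% and 77.3% in control-F1 lines 29, 37, 44 and 45, and 70.6%, 75.9%, 77.8% and 94.4% in ICSI-F1 lines 11, 17, 20 and 21. The group values were 49.0% ± 25.9 and 79.7% ± 10.3 (SD, n = 4), and the groups overlapped through line 45. The difference of 30.6 points was 19.19 without line 37, the other strand was at 3.81% and the 14 cytosines nearby at 1.56%.

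At *Cnr1*, the gene of a cannabinoid receptor, the site 573 bp upstream (chr4:33924020, minus strand; its sequence is printed above) had 52.8%, 44.2%, 58.7% and 50% in the control-F1 lines in the same order. The ICSI-F1 lines had 84.6%, 75%, 89.7% and 74.4%, all above every control-F1 line. The group values were 51.4% ± 6.03 and 80.9% ± 7.47 (SD, n = 4), a difference of 29.5 points that was 31.3 within set 1 and 27.7 within set 2, with an adjusted p of 0.702 in the moderated logistic model. The other strand was at 19.22%, with a difference of −4.35, and 38 cytosines nearby averaged 1.39%. Of the 4 largest increases past the 20% rule this was the one whose groups did not overlap.

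The site of *Samd5*, which encodes a SAM domain protein (chr10:9675674, plus strand), spanned 17.3% to 59.1% in the control-F1 lines and 41.4% to 96.3% in the ICSI-F1 lines. It differed by 29.5 points with overlap. At *Sec23b*, a coat protein of vesicles that leave the endoplasmic reticulum (chr2:144555906, plus strand), the control-F1 lines spanned 14.3% to 87.5% and the ICSI-F1 lines 64.7% to 100%, and the difference of 29.5 points was 15.0 without line 37.

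The decrease at *Marcksl1*, which encodes an actin-binding relative of the MARCKS protein, lay 54 bp upstream of the start (chr4:129513527, plus strand; printed above). The control-F1 lines had 65.0%, 50%, 47.4% and 53.4% and the ICSI-F1 lines 39.1%, 28.1%, 35% and 27.5%, without overlap. The group values were 54.0% ± 7.77 and 32.4% ± 5.61 (SD, n = 4), and the difference was −21.5, with −23.9 within set 1, −19.14 within set 2 and an adjusted p of 0.702 in the moderated logistic model. It was −17.8 without line 29 and −19.9 without line 21, short of the 20 points of the rule. The other strand was at 3.97%, and this site had a 5′ fragment of 103 bp and a 3′ fragment of 23 bp.

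**Figure D4:**
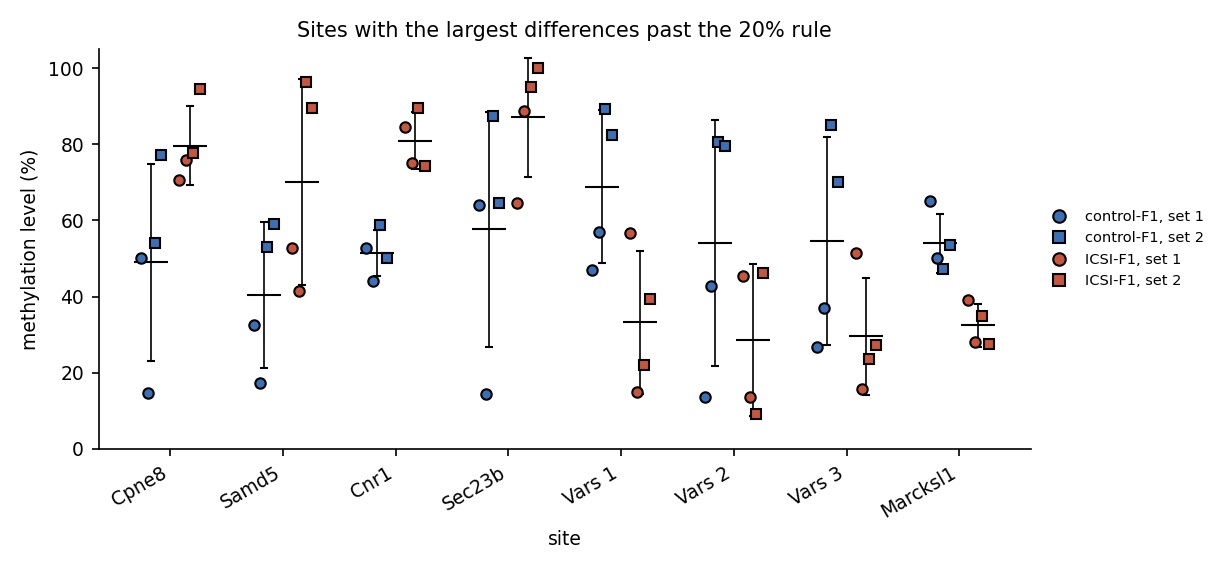
Methylation level (%) in each GS cell line at the 4 sites with the largest increase and the 4 with the largest decrease past the 20% rule; dashes and bars are group means and SD (n = 4), circles are lines of set 1 and squares lines of set 2, and the 3 Vars sites are in order of the size of their decrease. The groups are apart at Cnr1 and Marcksl1 and overlap at the other 6 sites.

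The spread between lines was itself uneven. Among sites with at least 30 scaled reads in every line, the SD over the 8 lines was largest at *Pcbp3*, which encodes an RNA-binding protein (chr10:76962028; SD 32.1), at *Usp1*, a deubiquitinase of DNA repair (chr4:98922852; SD 28.4), and at *Ormdl3*, a regulator of sphingolipid synthesis (chr11:98587657; SD 27.4). At *Pcbp3* the lines of set 2 had 93.3% to 97.0%, lines 11 and 17 had 60.6% and 54.5%, line 29 had 29.7% and line 37 had 16.7%. Line 37 was at 6.82% at *Usp1* and 10.7% at *Ormdl3*, where the other lines had 54.5% to 91.4% and 68.8% to 93.5%. Their 3′ fragments had 229, 262 and 312 bp.

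Sites with a small SD included those of *Acer2*, an alkaline ceramidase (chr4:86874222; SD 2.83), and *Cdr2l* (chr11:115381909; SD 3.69). At *Acer2* the 8 lines lay between 38.4% and 46.8% and at *Cdr2l* between 34.7% and 47.8%, where all ICSI-F1 lines were above all control-F1 lines with a difference of 4.95 points. The 3′ fragments of these sites had 28 and 24 bp. All 5 of these promoters had neighbouring cytosines under 3%.

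By the number of sites, the leading genes were *Gm15407* with 25, *Vars*, the valyl-tRNA synthetase, with 11, and *Skil*, a repressor of TGF-β signalling, with 6. *Meis1* (homeobox factor), *Helz* (helicase with a zinc finger), *Nid2* (nidogen of basement membranes), *Hspa9* (mitochondrial chaperone) and *Fibcd1* (a receptor for acetylated ligands) had 4 each, as did 13 further genes. All sites of these 6 genes after *Vars* were at CCGG. At *Skil* the 6 sites averaged 64.8%, 48.0%, 62.5% and 55.9% in control-F1 lines 29, 37, 44 and 45 and 60.8%, 64.8%, 60.7% and 58.1% in ICSI-F1 lines 11, 17, 20 and 21. The cytosines of the *Skil* promoter outside CCGG had 0.415% to 2.58% in the same lines. Group values of the *Skil* sites were 57.8% ± 7.55 and 61.1% ± 2.78 (SD, n = 4), with overlap. At *Nid2* line 37 had 17.9% and the other lines 38.3% to 69.0%, while at *Meis1* the 8 lines lay between 38.5% and 56.4%. No gene with 5 or more island sites had all of them at 40 to 80%.

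Imprinted genes held 7 sites in 6 of 15 genes with island sites, or 1.41% of their island cytosines. These 7 were all at CCGG, and 1 was hypermethylated by the 20% rule, where 2.32% of all 2368 sites and 0.274% of all promoter sites were. *Dio3*, a thyroid hormone deiodinase gene of the imprinted Dlk1-Dio3 cluster, had 2 sites with means of 30.4%, 23.6%, 58.4% and 54.3% in the control-F1 and 51.3%, 52.7%, 63.2% and 68.3% in the ICSI-F1 lines. The group values of *Dio3* were 41.7% ± 17.3 and 58.9% ± 8.21 (SD, n = 4) with overlap, and the cytosines of its promoter outside CCGG had 1.88% ± 0.917 and 1.12% ± 0.842. The difference of 17.2 points at the *Dio3* sites was 25.0 within set 1, which holds line 37, and 9.38 within set 2. *Rasgrf1*, expressed from the paternal allele, *Kcnk9*, a potassium channel gene expressed from the maternal allele, and *Smoc1* had 1 site each. At *Rasgrf1* this was 26.3% to 83.3% over the 8 lines with the cytosines outside CCGG at 0.214% to 2.14%.

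Germ cell and meiosis genes held 6 sites in 4 of 14 genes, or 2.97% of their island cytosines, and none passed the 20% rule. *Bcl6b*, a repressor that GDNF induces in spermatogonial stem cells, had both strands of 1 CpG of CCGG (chr11:70230428 and 70230429), at 50.4% and 44.4%, with neighbours at 2.17%. *Kit*, the receptor that marks differentiating spermatogonia, had 2 sites whose mean was 25.8% in line 37 and 57.3% to 94.4% in the other lines, while its cytosines outside CCGG averaged 2.45% and 2.43% in the control-F1 and ICSI-F1 groups. *Sycp1*, a protein of the synaptonemal complex, and *Slc25a31*, the germ cell carrier of ADP and ATP, had 1 site each, at 18.1% to 83.3% and 28.6% to 66.0%.

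Developmental transcription factors held 63 sites in 41 of 76 genes (2.13% of island cytosines), led by *Foxn4* and *Sox12* with 4 each and *Sox8* and *Barhl2* with 3. Zinc finger genes held 37 sites in 31 of 123 genes (1.28%), led by *Zfp362* with 3 and *Zfp318*, *Zfp41* and *Zfp654* with 2. All sites of both lists were at CCGG. Of the 63 sites of transcription factors 1 was hypermethylated by the 20% rule, where 2.32% of all 2368 sites were. Rik transcripts held 47 sites in 36 of 148 genes (1.51%), led by *2700081O15Rik*, *9530059O14Rik* and *1300014J16Rik* with 3 each. These shares stood beside 1.52% over all island sites, and 1800 of 5796 genes with island sites held a site at 40 to 80%. Among island cytosines of CCGG, 10.6% were such sites. In the lists these were 7 of 63 (imprinted genes), 6 of 36 (germ cell and meiosis genes) and 63 of 439 (developmental transcription factors). They were 37 of 453 for zinc finger genes, 47 of 439 for Rik transcripts and 65 of 545 for unnamed Gm genes. No site lay in clustered protocadherins, olfactory, vomeronasal and taste receptors, microRNA genes or histone genes, which held 0, 80, 86 and 78 island cytosines. Only 0, 8, 8 and 10 of these were at CCGG, too few for the absence to set these lists apart. Unnamed Gm genes held 93 sites in 50 of 171 genes (2.59%), and 28 of these sites were outside CCGG.

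The 37 sites outside CCGG belonged to 6 genes, all named because of this and after their values were seen. *Gm15407* held 21 of them, *Vars* 9, *Gm48544* 3, *Gm37927* 2 and *Gm21863* and *Gm49540* 1 each. At 14 of the CpGs concerned both strands were at 40 to 80%. The same held for 12 CpGs of CCGG, where the other strand was measured for 2083 sites.

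The region upstream of *Gm15407* (chr5:148820500-148820727, sequence printed above) held CpGs of even levels, whose 21 cytosines outside CCGG had means of 56.7% to 73.1% and lay 60 to 261 bp from the start. Averaged over the 21 cytosines, the control-F1 lines had 89.8%, 51.9%, 68.7% and 60.2% and the ICSI-F1 lines 52.3%, 35.7%, 57.6% and 94.6%. The group values were 67.6% ± 16.3 and 60.1% ± 24.9 (SD, n = 4), and the groups overlapped. Within a line the cytosines differed by a median SD of 6.47 points, and at a cytosine the lines differed by 20.5 points, so that each line had its own level over the region. Unscaled coverage was 10 to 103 reads. Over all 29 sites of the promoter the difference was −4.85 points (two-sided exact permutation test of the 70 arrangements, p = 0.714, adjusted p = 1 over all promoters).

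At *Vars* the 9 cytosines outside CCGG lay 563 to 659 bp upstream of the start (chr17:35000319-35000429, printed above), in sequence that the reference marks as repetitive. Their means were 31.0%, 49.5%, 74.6% and 75.8% in the control-F1 and 69.4%, 16.3%, 19.07% and 39.5% in the ICSI-F1 lines, and the groups of 57.7% ± 21.5 and 36.1% ± 24.5 (SD, n = 4) overlapped. Within 232 bp of the start the cytosines of *Vars* outside CCGG were at 0 to 4.13%. The site at chr17:35000341 fell by most, from 68.9% ± 20.1 in the control-F1 group to 33.2% ± 18.7 in the ICSI-F1 group (SD, n = 4), by −16.2 points within set 1 and −55.1 within set 2, with an adjusted p of 0.533 in the moderated logistic model. At chr17:35000354 and chr17:35000424 the differences were −25.1 and −25.5 overall and 1.85 and 1.43 within set 1. Without line 44 they were −15.0 and −16.7, short of the 20 points of the rule, as was the second without line 45 (−17.0) or line 20 (−18.98), and the second was −38.98 without line 29. Over all 59 sites of the promoter the difference was −8.18 points (exact two-sided permutation test, p = 0.171).

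*Gm48544* had 4 sites in the table, and all of them were at 40 to 80% (chr13:13034789-13034828, printed above). Its 3 cytosines outside CCGG averaged 45.4%, 25.3%, 93.9% and 75.8% in the control-F1 and 86.7%, 75.8%, 77.8% and 31.0% in the ICSI-F1 lines, on 14 to 33 unscaled reads. Over the 4 sites the difference was 48.9 points within set 1 and −34.3 within set 2, and 7.29 overall (exact two-sided permutation test, p = 0.8286). *Gm37927* on the Y chromosome had 8 sites in the table, 2 of them at 40 to 80%. Over the 8 the control-F1 lines had 47.4% ± 7.93 and the ICSI-F1 lines 37.7% ± 5.82 (SD, n = 4; exact two-sided permutation test, p = 0.0571), and the difference was −18.8 points within set 1 and −0.553 within set 2. Without line 37 the *Gm37927* difference of −9.68 was −5.88 (exact two-sided permutation test, p = 0.143). The single site of *Gm49540* ran from 0 in line 45 to 100% in line 17, and that of *Gm21863* from 22.2% in line 21 to 100% in line 11.

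**Figure D5:**
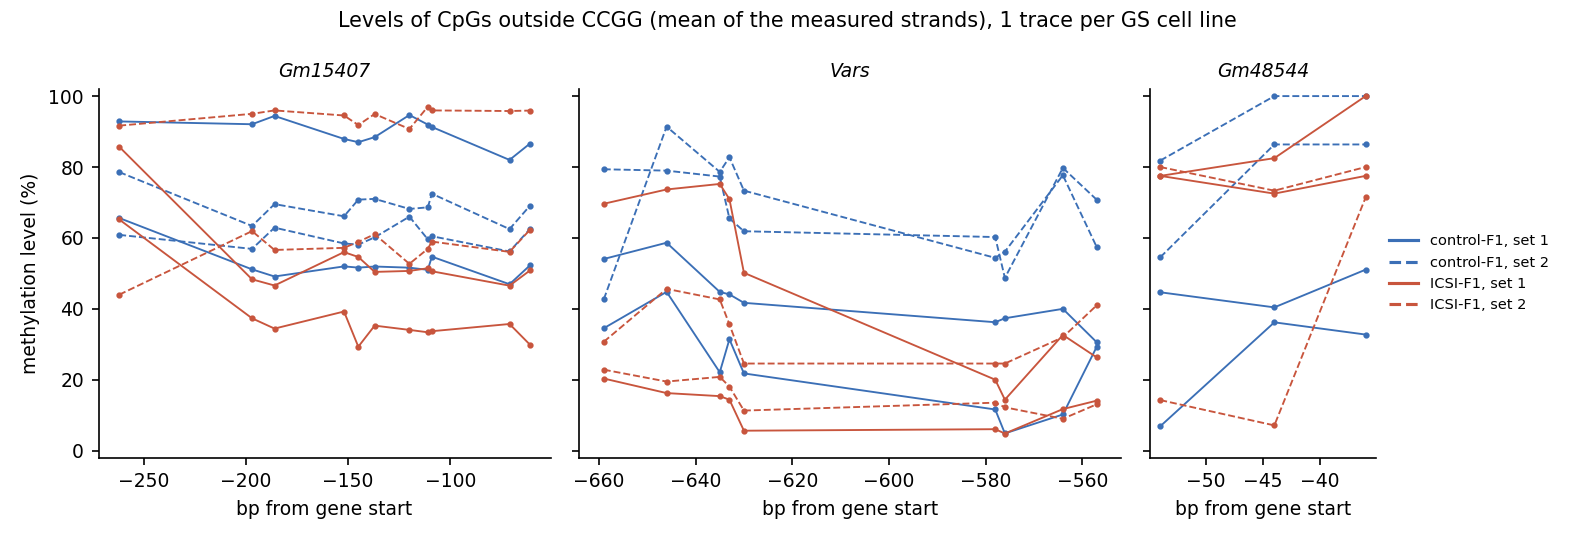
Methylation level (%) of CpGs outside CCGG, averaged over the measured strands, by distance from the gene start in bp (upstream is negative) for Gm15407, Vars (its far upstream part) and Gm48544, with 1 trace per GS cell line. At Gm15407 the traces run flat, with means over the region from 35.7% in line 17 to 94.6% in line 21.

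Among CCGG CpGs, 14 had 1 cytosine at 40 to 80% and the other strand at 40% or more, of which 12 had neighbours under 10%. These were upstream of *Creb1*, *Vamp2*, *Bcl6b*, *Golm1*, *Rnf31*, *Socs1*, *Ezr*, *Six2*, *CJ186046Rik*, *Ttc9c*, *Gm50341* and *Pax2*, chosen after their values were seen. At *Creb1*, the cAMP-responsive transcription factor, the strands were at 52.3% and 46.7% and 29 cytosines nearby at 2.28%. At *Socs1*, a suppressor of cytokine signalling, they were at 50.5% and 96.6%. At 6 of the 12 one adjoining fragment had 148 or 149 bp, close to the read length. *Pax2*, a transcription factor of the kidney and ear, had 47.3% and 42.6%, and line 37 was lowest of the 8 lines on the plus strand, at 16.7%, and highest on the minus strand, at 67.4%.

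As single values, the mean levels of whole promoters were tested by an exact two-sided permutation test. The smallest p that 4 lines against 4 allow, 0.0286, was reached by 135 of 9224 promoters (1.46%) and by 6 of the 1800 with sites at 40 to 80% (0.333%), and no adjusted p was under 1.

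The thresholds of the rule passed through a continuous range of levels. The sites nearest inside 40% were those of *Hcn4* (40.011%) and *Gm50341* (40.012%), and nearest outside were *Dnmbp* (39.998%) and *Sipa1l3* (39.992%). At the upper threshold *Larp4b* (79.97%) and *Gm13889* (79.95%) were inside and *Pcdh7* (80.05%) and *Rab8a* (80.06%) outside, and all 8 were at CCGG.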

How the data were processed

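DNA of 8 GS cell lines was cut with MspI and sequenced as paired reads of 150 bases by reduced representation bisulfite sequencing. Per the labels and the methods of the study, the authors trimmed with Trim Galore 0.5.0, aligned to mm10 with Bismark 0.20.0 in its mode for all strands and called cytosines with methylKit 1.16.0 (the methods of the study name another version). They kept strands apart and cytosines with at least 10 reads within 1 kb of a gene start. The deposited table holds, per cytosine and line, methylated and unmethylated reads that the authors scaled to a common depth and rounded, a score and not a raw count, so the analysis planned for read counts used these values and the unscaled ones were an alternative. The factors found from the gaps between values were 1 to 1.875.

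The level was the methylated share of the scaled reads. A CCGG, the MspI fragments, the GC content and the annotation were read from GRCm38. The logistic model was fitted to all sites that vary (196818) with dispersion moderated by limma 3.58.1 in R 4.3.3, and Benjamini-Hochberg adjustment covered all of them. Its tests, with and without moderation, used no dispersion below that of counting alone. Promoter means were compared by exact two-sided permutation over the 70 arrangements of 4 lines against 4, whose smallest p is 0.0286 (Python 3.11.15, numpy 2.4.6, scipy 1.17.1). The tests were tested on simulated data. The sites, gene lists and tests were chosen with earlier results of these data known. The text names the 8 genes with most sites, the 4 largest increases and decreases past the 20% rule, up to 4 genes of each list, the 3 largest and smallest SDs (1 of these sites is not reported here), genes whose sites (at least 5) all qualify, of which there were 0, and the 2 sites nearest each side of a threshold.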

Additional observations from a re-analysis of the deposited data

Results flagged for a closer look

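Of 172 groups of 4 lines examined over the named genes and sites, 3 had a line far from the other 3 by Dixon's criterion, which chance meets in about 1 in 20 groups. The site of *Gm32093*, a CCGG cytosine whose neighbours were above 10%, was at 87.1% in control-F1 line 45, where the group median was 47.92%, and at 77.27% in ICSI-F1 line 20, where the median was 48.75%. The *Hcn4* site at chr9:58822908, just inside the lower threshold, was at 53.95% in ICSI-F1 line 20, with a group median of 35.92%.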

How the results depend on the processing

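Several alternatives moved the counts. The number of sites, 2368, was 1386 with at least 30 scaled reads in every line, 401 with the strands of a CpG summed and 37 outside CCGG, and 2316 to 2452 without each line in turn. The mean difference of 4.58 points was −1.62 to 7.88 without each line in turn, negative without line 37, and −8.91 over the sites outside CCGG. The 55 hypermethylated sites became 16 with at least 30 reads, 8 with strands summed, 10 (without line 37) to 220 (without line 44) when a line was left out, 122 with read-weighted means, 366 in set 1 alone, 106 in set 2 alone, 151 at 15 points, 1 at 30 points, 5 where the groups had to be apart and 0 outside CCGG. The 6 hypomethylated sites became 3 with at least 30 reads, 1 with strands summed, 9 (without line 45) to 25 (without line 37 or 21) when a line was left out, 54 in set 1, 47 in set 2, 14 at 15 points, 1 at 30 points and 1 where the groups had to be apart, 11 when a stray ICSI-F1 line was allowed and 3 at CCGG. No site passed a false discovery rate of 0.05 in any fit, and the lowest adjusted p was 0.0983 (without line 11) to 0.9999 (limma). The difference at *Gm15407* ran from −15.3 to 2.26 without each line in turn, was 2.26 without line 29 and 2.09 without line 17, and was 11.4 in set 2. At *Gm48544* it ran from −6.04 (without line 37) to 21.3 and was −34.3 in set 2. In set 1 the *Vars* sites 35000424 and 35000354 had 1.43 and 1.85. The cause of these shifts was not tested. The median SD within groups (13.5 to 18.1) and the median strand difference of 45.8 points (43.4 to 49.3) stayed within 1.5 times their values without each line in turn. The comparisons inside and outside CCGG were added after the data were seen. No paired analysis was possible because the line numbers are not shared between the groups. Depth limits single sites, since counting alone gives an SD of 7.76 points.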
